A study of Mus musculus with 112 samples.

Results

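Antioxidant enzymes that remove superoxide and peroxides were compared between caloric restriction (CR) and control feeding in epididymal white adipose tissue (WAT) of male mice. The enzymes were chosen by name and compartment, by a rule that uses no measured value but was written with earlier results of these data known: Sod2, Prdx3, Prdx5 and Txn2 of mitochondria, Sod1, Gpx1 and Gpx4 of the cytosol, Cat of peroxisomes, and Sod3 and Gpx3, which are secreted. Of these 10 genes, 9 had a probe set carrying the symbol of that gene alone, among 19938 genes so measured. Prdx5 had none and was not analysed here, so the mitochondrial group held 3 genes and the other compartments 6. Each gene was read from its brightest probe set, and only Gpx4 had a second one.

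The data were 112 whole-genome arrays with 1 mouse on each. There were 7 strains and 16 mice per strain, 8 on each diet. The strains were CBA/J, DBA/2J, 129S1/SvImJ, C3H/HeJ, BALB/cJ (written Balbc/J in the labels), C57BL/6J (written C57BL6/J) and B6C3F1/J, a hybrid of C57BL/6J and C3H/HeJ. None of these mice carried an engineered allele or received a compound, according to the labels. Mice of every group arrived at 6 weeks, lived singly and ate 84 kcal per week of a purified diet. They were then assigned to the control or the CR diet from 8 weeks of age. Tissue was taken at 22 weeks, after an overnight fast. Feeding was not the same in every strain: 129S1/SvImJ and C57BL/6J mice on CR had their food lowered a second time during the study, and BALB/cJ mice were given more food on both diets. Diet amount and strain therefore cannot be told apart in differences that involve these strains.

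Superoxide dismutases convert superoxide, a by-product of respiration and of NADPH oxidases, to hydrogen peroxide. Sod2 works in the mitochondrial matrix, Sod1 mainly in the cytosol and Sod3 outside the cell. Hydrogen peroxide is then reduced by catalase in peroxisomes, by glutathione peroxidases at the expense of glutathione, and by peroxiredoxins. Prdx3 is the peroxiredoxin of the matrix, and thioredoxin 2 (Txn2) returns it to its active form. Gpx4 reduces lipid hydroperoxides within membranes. It has cytosolic and mitochondrial isoforms that these probe sets do not separate, and Gpx1 protein also reaches mitochondria, so compartment here refers to the main site of each enzyme.

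Upstream sequences of the 3 mitochondrial genes, which moved in the same direction, are shown with that of Gpx1, a cytosolic gene that moved in the opposite direction. They are the 250 bases before the RefSeq transcription start in GRCm38.p6, written 5′ to 3′ on the strand of the gene. Capitals mark matches to any of 5 motifs searched on both strands: TGACNNNGC (antioxidant response element core), AAGGTCA (estrogen-related receptor site), CCGGAAG (ETS site of the GABPA type), TGCGCA (NRF1-type site) and GGGCGG (GC box).
Sod2, chr17:13007589-13007838 (+ strand): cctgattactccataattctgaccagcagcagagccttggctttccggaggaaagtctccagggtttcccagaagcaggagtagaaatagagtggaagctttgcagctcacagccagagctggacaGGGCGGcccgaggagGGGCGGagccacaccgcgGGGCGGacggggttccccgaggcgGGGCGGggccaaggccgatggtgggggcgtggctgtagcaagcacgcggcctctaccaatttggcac
Prdx3, chr19:60874539-60874788 (- strand): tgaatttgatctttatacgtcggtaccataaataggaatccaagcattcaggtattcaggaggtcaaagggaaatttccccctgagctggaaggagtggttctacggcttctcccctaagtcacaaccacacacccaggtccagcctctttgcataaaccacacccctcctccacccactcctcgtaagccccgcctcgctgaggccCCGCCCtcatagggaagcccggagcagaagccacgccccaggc
Txn2, chr15:77928995-77929244 (- strand): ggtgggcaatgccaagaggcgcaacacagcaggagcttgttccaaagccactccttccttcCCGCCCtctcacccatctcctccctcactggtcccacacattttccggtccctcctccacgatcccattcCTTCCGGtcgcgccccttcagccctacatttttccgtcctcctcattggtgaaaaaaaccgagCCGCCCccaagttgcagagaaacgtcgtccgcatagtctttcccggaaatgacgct
Gpx1, chr9:108338830-108339079 (+ strand): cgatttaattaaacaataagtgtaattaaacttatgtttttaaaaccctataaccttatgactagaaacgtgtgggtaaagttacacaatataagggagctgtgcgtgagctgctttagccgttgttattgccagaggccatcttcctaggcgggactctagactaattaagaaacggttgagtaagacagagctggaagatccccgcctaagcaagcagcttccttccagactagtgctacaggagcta
The Sod2 window held 4 GC boxes, the Txn2 window 2 and the Prdx3 window 1, while none of the 5 motifs occurred in the Gpx1 window. The Txn2 window also held 1 ETS site, read on the opposite strand as CTTCCGG. Over all 32851 RefSeq promoter windows of this length, 32.7% held a GC box, 6.91% the ETS site, 10.2% the antioxidant response element core, 4.08% the estrogen-related receptor site and 6.43% the NRF1-type site. Among the other enzymes, the Sod1 window held 4 GC boxes and 1 antioxidant response element core. The Cat and Gpx3 windows held 1 GC box each, and the Prdx5 window held 1 GC box and 1 ETS site. Of the 4 windows of Gpx4, 3 held a GC box and 2 of them an NRF1-type site as well. Those 2 windows overlap, and the same NRF1-type site and GC boxes lie in both. The RefSeq table used covered 9 of the 10 listed genes. A match is a run of letters and not evidence that a factor binds there.

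Some arrays stood apart from the rest. Epididymis markers, which trace tissue of the neighbouring epididymis, had a mean log2 signal of 4.78 to 11.96 in the C57BL/6J CR mice and of 5.07 to 11.70 in the CBA/J CR mice. In DBA/2J the range was 4.99 to 9.92 in control mice and 5.11 to 8.14 in CR mice. By these markers and the main axes of variation, 23 arrays stood apart, 17 of them from CR mice and 6 from control mice, and 8 of the 23 had epididymis markers more than 2 log2 units above the median array. The mean of 11 adipocyte markers lay between 12.27 and 12.49 in the 14 groups. Single arrays fell below that: C57BL/6J CR mouse 2 had 11.25, against 12.36 to 12.48 in the rest of its group, and CBA/J CR mouse 5 had 11.84, against 12.29 to 12.39. Changes that turned direction without the arrays that stood apart are given with both values. For calls lost in C57BL/6J and DBA/2J only the loss is given.

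All values below are log2 RMA signal, so a difference of 1 is a doubling. Across the 7 strains, CR raised 5 of the 9 measured enzymes and lowered 3 (limma, Benjamini-Hochberg adjusted p under 0.05). Of all genes, 21.9% were higher and 22% lower by the same test, so a call alone was common, and the median gene moved by 0.065 in either direction. Sod2, Prdx3, Txn2, Gpx4 and Sod1 rose, and Gpx1, Sod3 and Cat fell. Gpx3 did not pass the test for a shared effect. How often all genes shared a direction, a call or a full separation of the diets across strains was not counted. The 3 mitochondrial enzymes were higher in the mean of CR mice in each of the 7 strains, whereas the 6 others were divided in direction. Gpx4 was likewise higher and Cat lower in the mean of each strain, except that quantile normalization turned Gpx4 in C57BL/6J (-0.020) and Cat in DBA/2J (0.0054), and Cat in DBA/2J was 0.043 without the arrays that stood apart.

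**Figure D1:**
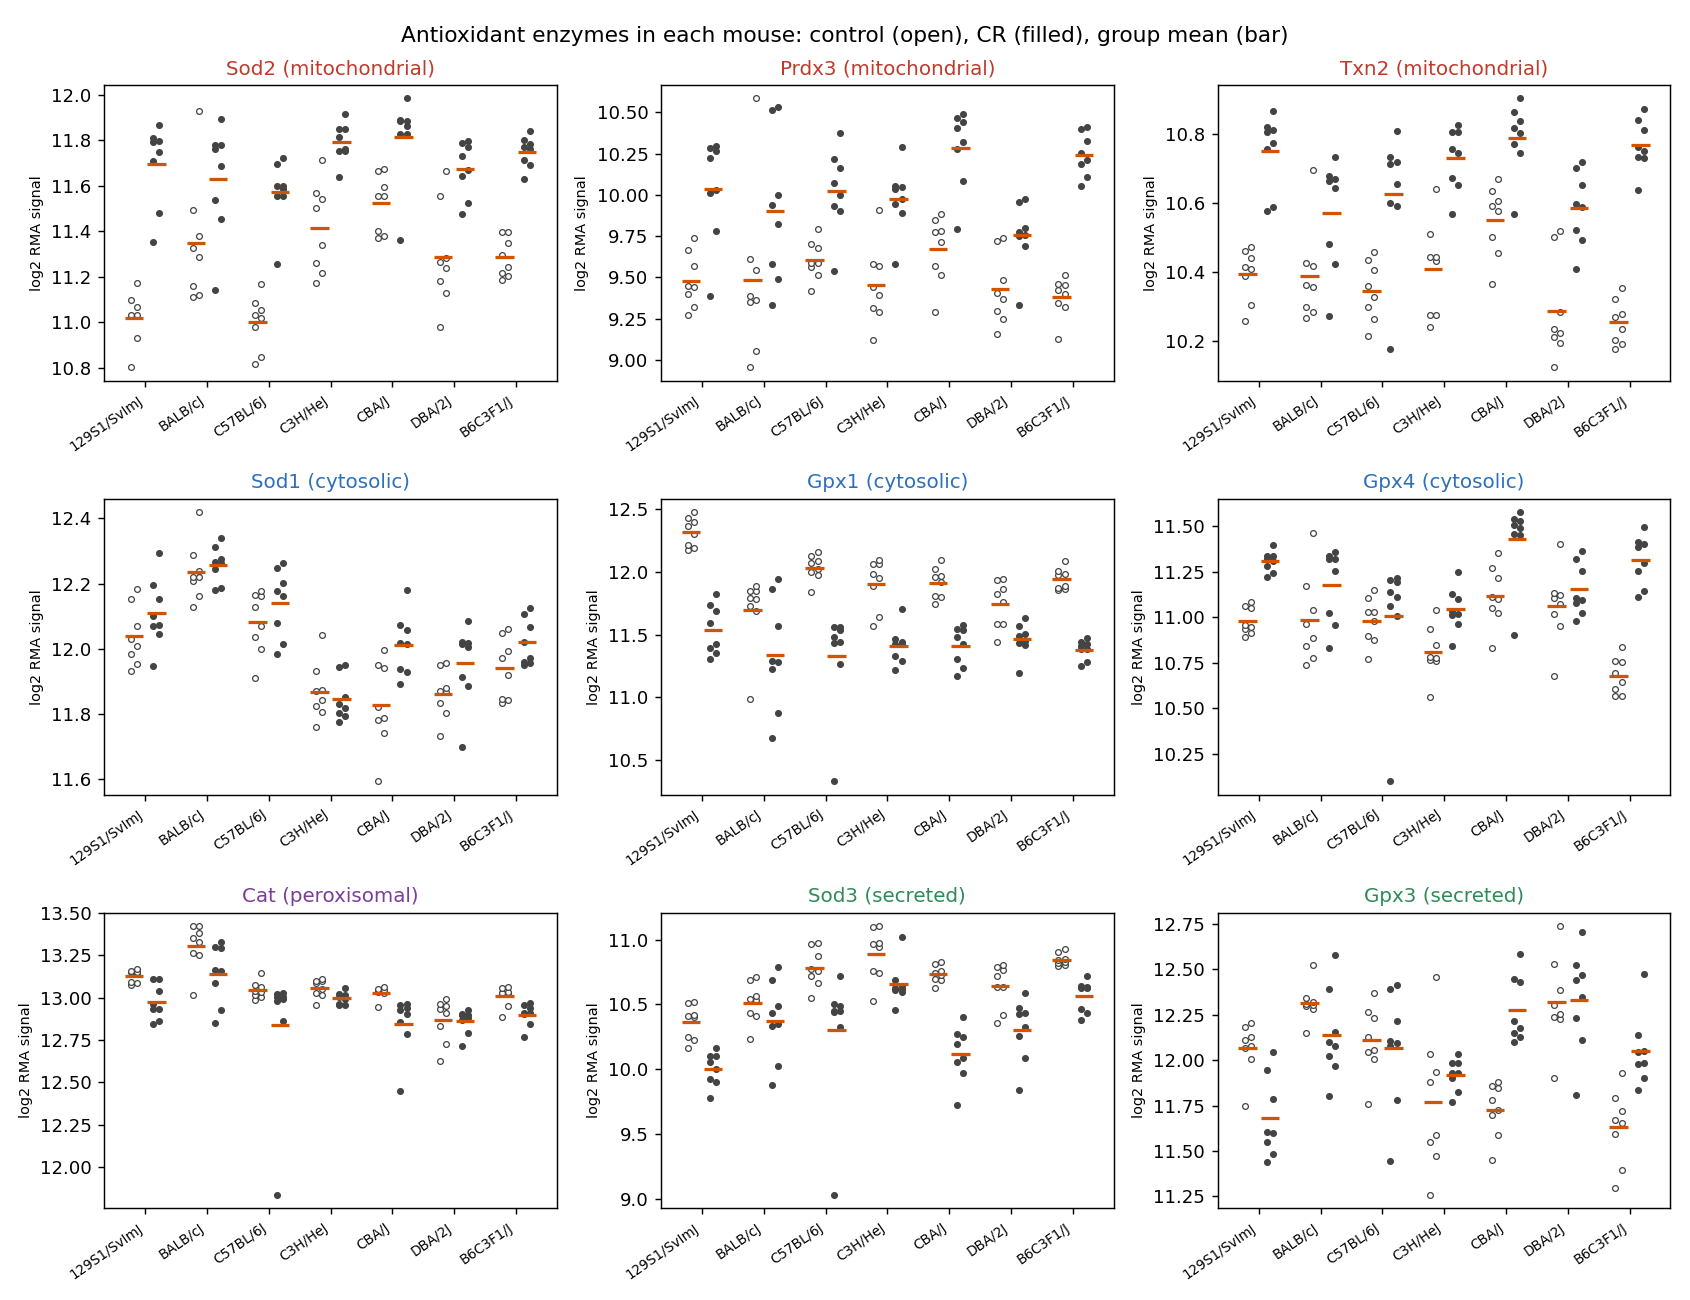
Each point is 1 mouse: log2 RMA signal (y axis) of each of 9 enzymes by strain (x axis), control mice open and CR mice filled, with a bar at the mean of each group of 8. The CR means of Sod2, Prdx3 and Txn2 lie above the control means in every strain and those of Gpx1 below, with wide overlap of single mice in BALB/cJ, while the CR mean of Gpx3 is below in 129S1/SvImJ and above in CBA/J and B6C3F1/J.

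Sod2, the matrix superoxide dismutase, averaged 11.27 in control and 11.70 in CR mice over the strains. The change was 0.43 ± 0.031 (SE, 56 mice per diet), or 1.35-fold, with a limma adjusted p of 3.50e-23. It was called within 6 of the 7 strains. In 129S1/SvImJ, control mice ranged from 10.80 to 11.17 with a median of 11.03, and CR mice from 11.35 to 11.87 with a median of 11.77. In C57BL/6J, control mice ranged from 10.82 to 11.17 (median 11.03) and CR mice from 11.26 to 11.72 (median 11.59). In these strains and in B6C3F1/J all CR mice were above all control mice. The range in B6C3F1/J was 11.19 to 11.40 (median 11.27) for controls and 11.63 to 11.84 (median 11.77) for CR. In CBA/J the control mice already stood high, at 11.37 to 11.67 with a median of 11.55, and 7 of the 8 CR mice exceeded all of them, at 11.36 to 11.98 with a median of 11.87. The remaining CBA/J CR mouse was below every control and was 1 of the arrays rich in epididymis markers.

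Prdx3, the matrix peroxiredoxin, had the largest mean rise of the 9 enzymes. It averaged 9.50 in control and 10.03 in CR mice, a change of 0.53 ± 0.049 (SE, adjusted p = 2.69e-17), or 1.45-fold. It was called in 5 strains. The rise was greatest in B6C3F1/J, where control mice ranged from 9.12 to 9.51 (median 9.41) and CR mice from 10.05 to 10.41 (median 10.23), with no overlap. In CBA/J, control mice ranged from 9.29 to 9.88 (median 9.74) and CR mice from 9.79 to 10.49 (median 10.36), so that 1 CR mouse fell among the controls. In 129S1/SvImJ, 7 of the 8 CR mice were above all controls (control 9.27 to 9.74, median 9.44; CR 9.39 to 10.30, median 10.13). DBA/2J gave 0.33 ± 0.099 (SE), with an adjusted p of 0.12.

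Txn2, the matrix thioredoxin, averaged 10.38 in control and 10.69 in CR mice, a change of 0.31 ± 0.023 (SE, adjusted p = 6.91e-23), or 1.24-fold. It was called in 6 strains. In B6C3F1/J, control mice ranged from 10.18 to 10.35 (median 10.25) and CR mice from 10.64 to 10.87 (median 10.76). In 129S1/SvImJ, control mice ranged from 10.26 to 10.47 (median 10.41) and CR mice from 10.58 to 10.87 (median 10.79). The diets did not overlap in either strain. In C57BL/6J, 7 CR mice were above every control and 1 was below every control, the array richest in epididymis markers (control 10.22 to 10.46, median 10.34; CR 10.18 to 10.81, median 10.68).

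The 3 mitochondrial enzymes also varied together among mice of 1 group. After the mean of each of the 14 groups was subtracted, Pearson's r over the 112 mice was 0.81 for Sod2 and Prdx3, 0.80 for Sod2 and Txn2, and 0.78 for Prdx3 and Txn2. This was not particular to mitochondrial enzymes: r was 0.79 for Cat and Gpx1, 0.75 for Sod3 and Gpx1, and 0.76 for Sod3 and Cat. Gpx4 had an r of 0.57 to 0.63 with the mitochondrial enzymes, and no pair with Sod1 or Gpx3 exceeded 0.411. All genes of 1 mouse share its array, its tissue composition and its epididymis content, described above, so these values are descriptions. Genes most like Sod2 by this measure were Echdc1 (r = 0.90), Rexo2 (0.89) and Ndufb6 (0.88), a subunit of respiratory complex I. Those most like Txn2 were Tufm (0.87), a mitochondrial translation factor, Dlst (0.86), a citric acid cycle enzyme, and Ndufab1 (0.85). Those most like Prdx3 were Mmgt1 (0.92), Bag1 (0.91) and Hsd17b12 (0.91).

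Mitochondrial content genes moved in parallel. Of 22 genes for respiratory chain, matrix and membrane proteins, 20 rose and none fell, with a median change of 0.34. Examples were Phb2 (0.25), Hspd1, the matrix chaperonin (0.50), Cyc1, cytochrome c1 (0.51), and Cox5a of cytochrome oxidase (0.50). Their mean rose by between 0.21 in DBA/2J and 0.50 in B6C3F1/J. The changes of Sod2 and Prdx3 across strains were thus within the range spanned by single content genes, 0.029 for Tomm20 to 0.54 for Ndufs1, and whether the enzymes changed beyond mitochondrial content was not tested.

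Among cytosolic enzymes, Gpx1 fell in the mean of CR mice of every strain. Gpx1, the most widespread glutathione peroxidase, averaged 11.94 in control and 11.41 in CR mice, a change of -0.53 ± 0.041 (SE, adjusted p = 5.19e-21), or 0.694 times the control level. It was called in 5 strains. In 129S1/SvImJ, control mice ranged from 12.17 to 12.48 (median 12.34) and CR mice from 11.31 to 11.82 (median 11.51). In B6C3F1/J, control mice ranged from 11.85 to 12.09 (median 11.93) and CR mice from 11.25 to 11.47 (median 11.40). In CBA/J, control mice ranged from 11.75 to 12.10 (median 11.94) and CR mice from 11.17 to 11.58 (median 11.45). All CR mice were below all controls in these strains and in C57BL/6J. The change was -0.71 ± 0.140 in C57BL/6J, where CR mice spanned 10.33 to 11.56 (median 11.46) and control mice 11.84 to 12.16 (median 12.05).

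Macrophage markers were lower under CR in the same tissue. Of 16 markers 15 fell, with a median change of -0.90, led by Mpeg1 (-1.23), Gpnmb (-1.77) and Itgax (-1.45); Cd163, at -0.094, did not pass the test. Strain means of the list ranged from 8.69 to 10.24 in control mice and from 8.23 to 8.85 in CR mice, and RMA signal has no 0 at which a marker is absent. In a bulk sample, fewer cells of a type and less RNA per cell cannot be told apart. By strain the list mean changed by -1.64 in CBA/J, -1.59 in B6C3F1/J, -0.89 in C3H/HeJ, -0.76 in 129S1/SvImJ, -0.68 in C57BL/6J, -0.53 in DBA/2J and -0.044 in BALB/cJ. Gpx1 over the same strains, in the same order, changed by -0.51, -0.56, -0.49, -0.78, -0.71, -0.28 and -0.35. The part of macrophage RNA in the Gpx1 change was not tested. The genes most like Gpx1 within groups were Rtl8c (r = 0.84), Tmem140 (0.84) and Celf2 (0.84).

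Gpx4, the lipid hydroperoxide peroxidase, rose where Gpx1 fell. It averaged 10.94 in control and 11.20 in CR mice, a change of 0.26 ± 0.034 (SE, adjusted p = 1.37e-10), or 1.20-fold. The second Gpx4 probe set gave 0.25 ± 0.033 (SE, adjusted p = 1.42e-10 when all 21789 single-gene probe sets were tested separately). Gpx4 was called in 4 strains. In B6C3F1/J, control mice ranged from 10.57 to 10.84 (median 10.67) and CR mice from 11.11 to 11.50 (median 11.34). In 129S1/SvImJ, control mice ranged from 10.89 to 11.09 (median 10.95) and CR mice from 11.22 to 11.40 (median 11.32). Neither pair overlapped. In C57BL/6J the change was 0.03 ± 0.130 (SE, adjusted p = 0.916), and 0.16 (adjusted p = 0.0919) without its 2 epididymis-rich CR arrays, with control mice at 10.77 to 11.15 (median 11.003) and CR mice at 10.10 to 11.22 (median 11.12). The genes most like Gpx4 within groups were Pcx (r = 0.87), which makes oxaloacetate from pyruvate, Ywhag (0.86) and Pmpcb (0.86).

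Sod1, the cytosolic copper-zinc dismutase, moved least among the called enzymes. It averaged 11.98 in control and 12.05 in CR mice, a change of 0.07 ± 0.018 (SE, adjusted p = 7.31e-04), or 1.05-fold. Only in CBA/J was it called within a strain, at 0.19 ± 0.062 (SE, adjusted p = 0.041), with control mice at 11.59 to 12.00 (median 11.80) and CR mice at 11.89 to 12.18 (median 12.02). The diets overlapped in all 7 strains. In C3H/HeJ the CR mean was lower than the control mean by 0.02, with a 95% interval of -0.12 to 0.08.

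Cat, the peroxisomal catalase, averaged 13.06 in control and 12.94 in CR mice, a change of -0.13 ± 0.027 (SE, adjusted p = 5.39e-05), or 0.916 times the control level. The diets overlapped in every strain, and Cat was called lower in 129S1/SvImJ and B6C3F1/J. In 129S1/SvImJ, control mice ranged from 13.08 to 13.17 (median 13.15) and CR mice from 12.84 to 13.11 (median 12.95). In C57BL/6J a single CR mouse at 11.84 lay far below the other 7, and CR mice had a median of 12.996 against 13.035 in controls. Most peroxisome genes did not share the direction of Cat: of 20 measured, 13 rose and 4 fell. The 4 that fell, as Cat did, were Acaa1b (-0.31), Hao1 (-0.29), Scp2 (-0.20) and Ech1 (-0.11). Pex16 (0.57), Pex7 (0.28), Abcd3 (0.40) and Pex11a (0.43), which build or supply peroxisomes, were higher. Genes most like Cat within groups were Adipoq (r = 0.89), Agmo (0.89) and Aqp7 (0.89). Adipoq, the adipocyte hormone adiponectin, and Aqp7, the adipocyte glycerol channel, changed by -0.17 and -0.20. Of 11 adipocyte markers 2 rose and 4 fell, led by Slc2a4 (0.92), Retn (0.19) and Plin4 (-0.35).

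Of the secreted enzymes, Sod3 fell. Extracellular superoxide dismutase averaged 10.68 in control and 10.33 in CR mice, a change of -0.35 ± 0.041 (SE, adjusted p = 1.64e-12), or 0.785 times the control level, with a lower CR mean in all 7 strains. It was called in 3. In CBA/J, control mice ranged from 10.63 to 10.83 (median 10.74) and CR mice from 9.73 to 10.40 (median 10.14). In B6C3F1/J, control mice ranged from 10.79 to 10.92 (median 10.83) and CR mice from 10.38 to 10.72 (median 10.62). The diets did not overlap in either. In C57BL/6J the change was -0.48 ± 0.177 (SE, adjusted p = 0.0716). Without the 2 epididymis-rich CR arrays of that strain it was -0.28, with an adjusted p of 0.0107. Genes most like Sod3 within groups were Sgcd (r = 0.89), Sulf2 (0.88) and C1qtnf1 (0.87). Of 8 fibroblast and progenitor markers 5 fell, led by Pdgfrb (-0.32), Dcn (-0.18) and Pdgfra (-0.32), and their part in the change of Sod3 was not tested. Of 8 endothelium markers 4 fell, led by Tek (-0.24), and of 6 T cell markers 1 fell, Cd2 (-0.21), beside 22% of all genes. No B cell marker (5 measured) or red blood cell marker (2 measured) was called. Among DBA/2J CR mice the B cell marker mean reached 9.88 and the T cell marker mean 8.71. The highest values in DBA/2J control mice were 6.67 and 6.76. Epididymis markers were called higher in 4 of 15 cases, led by Gpx5 (0.96), and testis germ cell markers in 3 of 6, led by Prm1 (0.33). Of all genes 21.9% were higher. The CR arrays given above held the highest epididymis levels. The germ cell marker mean rose by 0.92 in DBA/2J and changed by between -0.064 and 0.25 in the other strains.

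Gpx3, the plasma glutathione peroxidase, was the enzyme whose response differed most between strains. Its mean change over strains was 0.07 ± 0.042 (SE, adjusted p = 0.15), from 11.99 in control to 12.07 in CR mice. In 129S1/SvImJ it fell, with control mice at 11.75 to 12.20 (median 12.09), CR mice at 11.44 to 12.04 (median 11.60), and a change of -0.38 ± 0.088 (SE, adjusted p = 0.00266). In CBA/J it rose, with control mice at 11.45 to 11.88 (median 11.75), CR mice at 12.10 to 12.58 (median 12.19), and a change of 0.55 ± 0.082 (SE, adjusted p = 1.03e-04). In B6C3F1/J it rose as well, with control mice at 11.30 to 11.93 (median 11.66), CR mice at 11.84 to 12.47 (median 12.02), and a change of 0.42 ± 0.093 (SE, adjusted p = 0.00164). The diets were fully separate in CBA/J and overlapped in both other strains. The remaining strains gave -0.18 in BALB/cJ, -0.04 in C57BL/6J, 0.15 in C3H/HeJ and 0.01 in DBA/2J, none of them called.

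The shared Gpx3 effect depended on which strains were averaged. It was 0.15 (adjusted p = 0.00537) without 129S1/SvImJ, 0.12 (adjusted p = 0.0322) without BALB/cJ and -0.0048 (adjusted p = 0.954) without CBA/J. Gpx3 is also made by epididymal epithelium. Without the 8 arrays rich in epididymis markers the change was 0.099 (adjusted p = 0.0358), and the rise in CBA/J was 0.60 without its 2 such arrays. The genes most like Gpx3 within groups were Nfia (r = 0.68), Rad21 (0.63) and Car4 (0.62), a looser match than for any other enzyme here except Sod1, for which Eci1 (0.55), Hagh (0.53) and Rhbdd2 (0.52) came first.

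**Figure D2:**
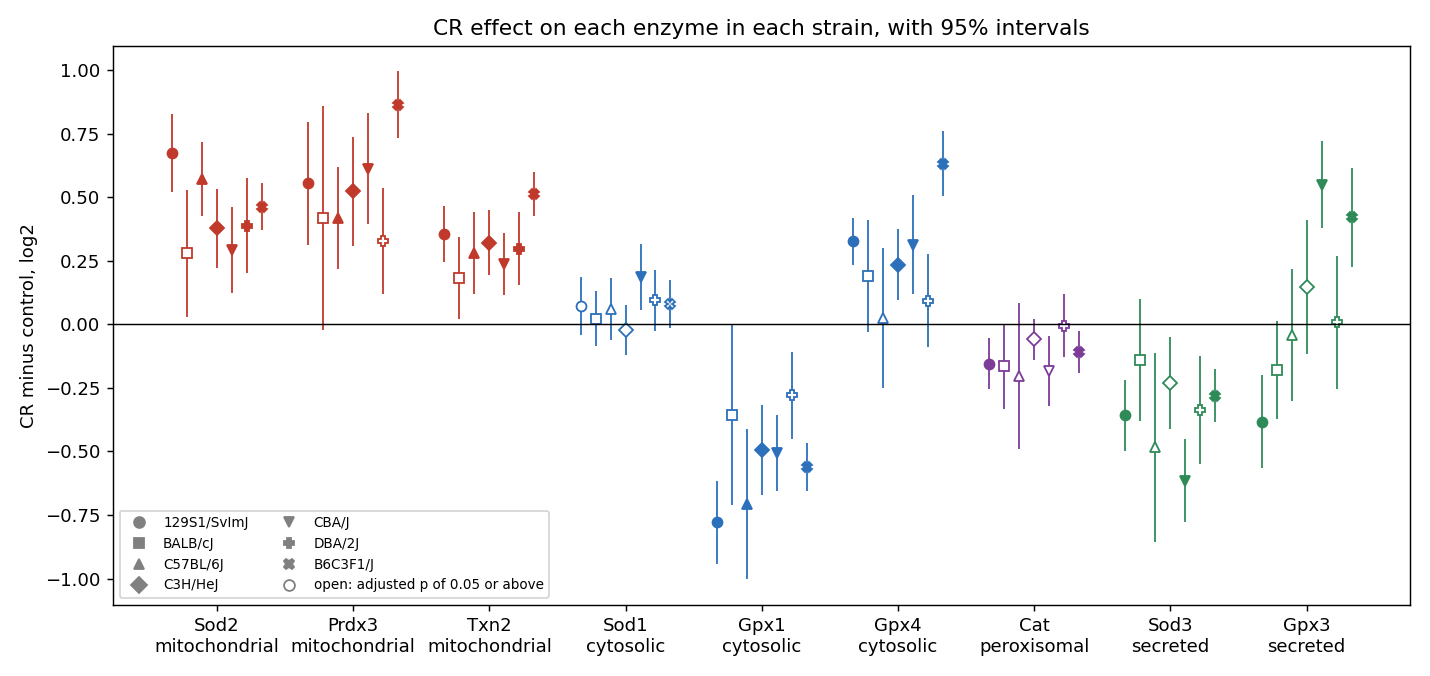
CR minus control (log2, y axis) for each of 9 enzymes (x axis) in each of 7 strains (symbols), with 95% intervals and symbols filled where the limma adjusted p within the strain was under 0.05. Symbols of Sod2, Prdx3, Txn2 and Gpx4 lie above 0 and those of Gpx1, Cat and Sod3 below it, though with quantile normalization Gpx4 in C57BL/6J moved to -0.020 and Cat in DBA/2J to 0.0054 (0.043 without the arrays that stood apart), and Gpx3 runs from -0.38 to 0.55.

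Whether the response of an enzyme differed between strains was tested with an F-test on the strain by diet terms. It was called for 4 of the 9 enzymes, against 19% of all genes. These were Gpx3 (adjusted p = 7.63e-06), Gpx4 (adjusted p = 0.00357), Sod2 (adjusted p = 0.0444) and Txn2 (adjusted p = 0.0477). Sod2 and Txn2 rose to different extents, 0.28 to 0.67 and 0.18 to 0.51, and both stood close to the threshold. Sod2 lost the call without 129S1/SvImJ, C57BL/6J, CBA/J or B6C3F1/J (adjusted p = 0.319, 0.084, 0.0825 and 0.0657), without the 23 arrays that stood apart (adjusted p = 0.119) and after median centring (adjusted p = 0.0606). Txn2 lost it without 129S1/SvImJ, BALB/cJ, CBA/J or B6C3F1/J (adjusted p = 0.0597, 0.0776, 0.0686 and 0.605) and after median centring (adjusted p = 0.0767). Gpx4 lost it without B6C3F1/J alone (adjusted p = 0.34), the strain with its largest rise. Gpx3 kept it under every alternative that was run.

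Within strains, the number of enzymes called was highest in 129S1/SvImJ, CBA/J and B6C3F1/J. In 129S1/SvImJ 4 were higher and 4 lower, where 16.8% of all genes were higher and 15.4% lower. In B6C3F1/J 5 were higher and 3 lower, where 17.8% of all genes were higher and 16.4% lower. In CBA/J 6 were higher and 2 lower, against 8.68% and 12.5% of all genes. In C3H/HeJ 4 were higher and 1 lower (8.75% and 6.88% of all genes). In C57BL/6J 3 were higher and 1 lower (9.39% and 7.32%), and none was called without the arrays that stood apart, which left 1 CR mouse of that strain. In DBA/2J 2 were higher, Sod2 and Txn2, and none lower, where 0.492% of all genes were higher and 0.396% lower; at an unadjusted p under 0.05, 5 of the 9 passed in that strain, against 15.1% of all genes. Sod2 in DBA/2J rose by 0.39 ± 0.089 (SE, adjusted p = 0.048), from a control range of 10.98 to 11.66 (median 11.25) to a CR range of 11.48 to 11.80 (median 11.70). Txn2 in DBA/2J rose by 0.30 ± 0.067 (SE, adjusted p = 0.0454). Both calls were lost after median centring (adjusted p = 0.0661 for Sod2 and 0.0709 for Txn2), with the replicate number as a block (0.0921 and 0.118) and without the arrays that stood apart, which left 2 control mice.

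At an unadjusted limma p under 0.01, 8 enzymes passed in 129S1/SvImJ (28.6% of all genes), 8 in CBA/J (20.9%) and 7 in B6C3F1/J (30.9%). There were 5 in C3H/HeJ (16.7%), 5 in DBA/2J (6.04%), 4 in C57BL/6J (17.6%) and none in BALB/cJ (1.58%). Sod2, Prdx3, Txn2 and Gpx1 each passed in 6 of the 7 strains at this threshold, Gpx4 and Sod3 in 4, Gpx3 in 3, and Sod1 and Cat in 1 each. The share of all genes that passed in as many strains was not counted. By the methods' t-test, run on the deposited values taken off the log scale, the counts at that threshold were 9 in CBA/J (20.8% of all genes), 8 in 129S1/SvImJ (27.2%), 8 in B6C3F1/J (30.4%), 5 in C57BL/6J (18.2%), 5 in C3H/HeJ (15.7%), 5 in DBA/2J (6.01%) and 0 in BALB/cJ (1.13%).

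BALB/cJ gave no call for any enzyme by limma, where 0% of all genes were higher and 0% lower. At an unadjusted p under 0.05, 3 of the 9 enzymes passed in this strain, against 7.52% of all genes. They were Txn2 (0.18, unadjusted p = 0.0295), Sod2 (0.28, unadjusted p = 0.0305) and Gpx1 (-0.35, unadjusted p = 0.0495). Control mice of this strain spanned a wide range: Prdx3 ran from 8.96 to 10.58 (median 9.38) in control and from 9.33 to 10.53 (median 9.88) in CR mice. Sod2 ran from 11.11 to 11.93 (median 11.31) in control and from 11.14 to 11.89 (median 11.73) in CR mice. A single control mouse, number 3, held the top of both control ranges. Without it the changes were 0.36 for Sod2 (adjusted p = 0.0794), 0.58 for Prdx3 (adjusted p = 0.0924) and -0.46 for Gpx1 (adjusted p = 0.134).

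The difference between BALB/cJ and the mean of the 6 other strains was tested directly. It was called for none of the 9 enzymes by limma, against 3.25% of all genes, and 4 passed at an unadjusted p under 0.05, against 13.4% of all genes. For Txn2 the change in BALB/cJ minus that elsewhere was -0.15 (95% interval -0.28 to -0.02, adjusted p = 0.244). For Gpx3 it was -0.30 (95% interval -0.53 to -0.06, adjusted p = 0.202), and for Sod3 0.24 (95% interval 0.01 to 0.48, adjusted p = 0.334). For Sod2 it was -0.18 (95% interval -0.36 to -0.0045, adjusted p = 0.356). Prdx3 did not pass, at -0.13 with an interval of -0.41 to 0.15. When arrays were weighted by their fit, Gpx3 alone passed, at -0.36 (adjusted p = 0.0338).

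Taken as compartments, the mean CR change of the 3 mitochondrial enzymes was 0.43 and that of the 6 others -0.10, a difference of 0.53 with no test attached. The mitochondrial changes ran from 0.31 to 0.53 and the others from -0.53 to 0.26, so the ranges of these chosen enzymes did not overlap. Other genes of the compartments did overlap. The 9 other mitochondrial antioxidant genes ran from -0.18 (Idh2) to 0.35 (Txnrd2), and the 15 other cytosolic genes from -0.15 (Glrx) to 0.34 (Srxn1). How often groups of this size separate among all genes was not counted. By strain, the difference between the 3 and the 6 enzymes was 0.74 in 129S1/SvImJ, 0.65 in C57BL/6J, 0.58 in B6C3F1/J, 0.48 in C3H/HeJ, 0.42 in CBA/J, 0.41 in DBA/2J and 0.40 in BALB/cJ. Within 3 strains single enzymes of other compartments rose more than single mitochondrial ones. In CBA/J these were Gpx3 (0.55) and Gpx4 (0.31) against Sod2 (0.29) and Txn2 (0.24), and in B6C3F1/J Gpx4 (0.63) against Txn2 (0.51) and Sod2 (0.46). In BALB/cJ, where none was called, Gpx4 (0.190) stood beside Txn2 (0.182).

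The same contrast was formed mouse by mouse by subtracting the average log2 signal of the 6 others from that of the 3 mitochondrial enzymes. Its sign has no meaning, since probe sets differ in brightness, but it can be compared between mice. In 129S1/SvImJ control mice ranged from -1.68 to -1.37 (median -1.49) and CR mice from -1.26 to -0.55 (median -0.69). In CBA/J control mice ranged from -1.28 to -1.02 (median -1.11) and CR mice from -0.81 to -0.59 (median -0.73). All 8 CR mice were above all 8 controls in 5 strains, B6C3F1/J, CBA/J, C3H/HeJ, C57BL/6J and 129S1/SvImJ, and 7 of 8 were in DBA/2J. In BALB/cJ control mice ranged from -1.75 to -0.63 (median -1.53) and CR mice from -1.68 to -0.47 (median -0.99), and 2 of the 8 CR mice were above every control.

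**Figure D3:**
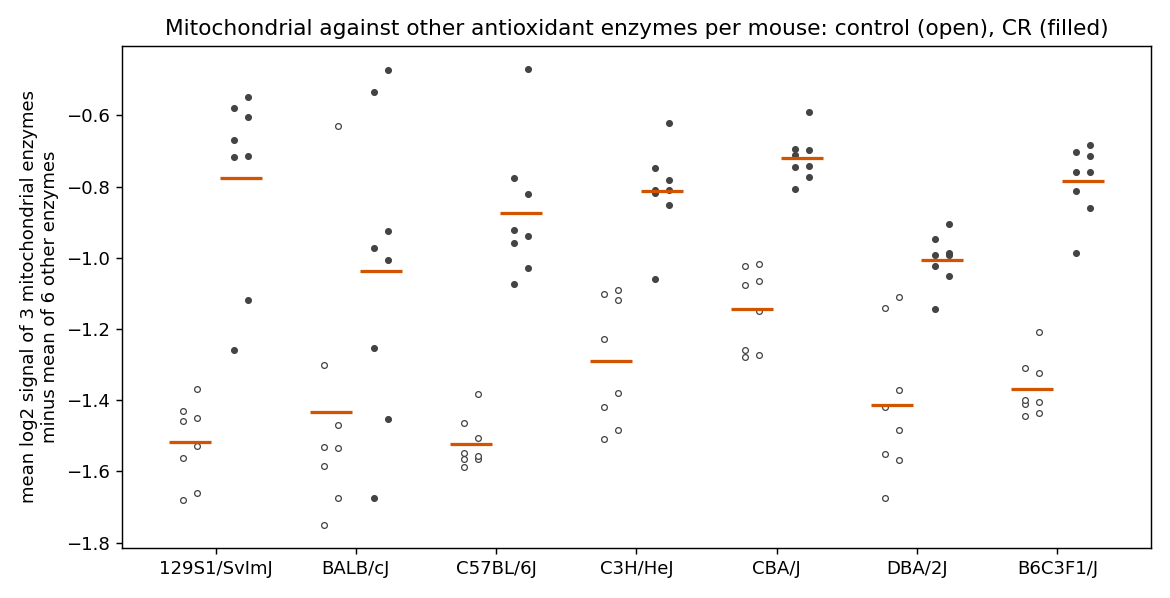
Mean log2 signal of 3 mitochondrial enzymes minus the mean of 6 other antioxidant enzymes in each mouse (y axis), by strain (x axis), control mice open, CR mice filled, bars at group means of 8. CR mice lie above all controls in 5 strains, while in BALB/cJ both diets span more than 1 log2 unit.

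On the control diet, 8 of the 9 enzymes differed among the 7 strains by F-test, against 56.6% of all genes. Prdx3 was the exception (adjusted p = 0.366). Its highest control mean was 9.67 ± 0.20 (SD, n = 8) in CBA/J and its lowest 9.38 ± 0.12 in B6C3F1/J. Few steps in these orders exceeded the spread: of 54 neighbouring pairs of strain means, 3 passed, or 5.56%, against 3.01% over the 6 pairs of every gene.

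For Sod2 the order was CBA/J (11.52 ± 0.12, SD, n = 8), C3H/HeJ (11.41 ± 0.19), BALB/cJ (11.35 ± 0.27), DBA/2J (11.29 ± 0.22), B6C3F1/J (11.29 ± 0.09), 129S1/SvImJ (11.02 ± 0.11) and C57BL/6J (10.999 ± 0.118). The single step that passed was from B6C3F1/J to 129S1/SvImJ (limma adjusted p = 0.0094). The strains with the lowest control Sod2, C57BL/6J and 129S1/SvImJ, had its largest CR changes, 0.57 and 0.67. Both also had the second food reduction, and their control means enter the CR changes, so no relation is drawn from these values.

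For Sod1, BALB/cJ was highest at 12.24 ± 0.09 (SD, n = 8) and above its neighbour C57BL/6J at 12.08 ± 0.09 (adjusted p = 0.0106), and CBA/J was lowest at 11.83 ± 0.13. For Gpx3, DBA/2J (12.32 ± 0.24) and BALB/cJ (12.32 ± 0.10) were highest and B6C3F1/J (11.63 ± 0.20) lowest. The Gpx3 step that passed lay between 129S1/SvImJ (12.07 ± 0.14) and C3H/HeJ (11.77 ± 0.38), with an adjusted p of 0.0461. No neighbouring pair passed for the other enzymes. Between the extremes, Gpx1 was 0.62 higher in 129S1/SvImJ than in BALB/cJ (adjusted p = 3.15e-06) and Cat 0.44 higher in BALB/cJ than in DBA/2J (adjusted p = 1.43e-06). Sod3 was 0.53 higher in C3H/HeJ than in 129S1/SvImJ (adjusted p = 7.61e-05), Gpx4 0.44 higher in CBA/J than in B6C3F1/J (adjusted p = 1.78e-04), and Txn2 0.30 higher in CBA/J than in B6C3F1/J (adjusted p = 1.46e-04).

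The rest of the antioxidant system was described by counts over lists, beside the 21.9% of all genes that were higher and 22% lower. Of 9 other mitochondrial antioxidant genes, 5 rose and 2 fell, with a median change of 0.091. Txnrd2, the reductase that recharges Txn2, rose by 0.35, and Glrx2 and Msrb2 rose by 0.18 and 0.19. Idh2, which makes NADPH in the matrix, changed by -0.18, and Nnt, which does so at the inner membrane, by -0.084, with strain changes from -0.49 to 0.26 that differed by F-test (adjusted p = 1.65e-06).

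Of 15 other cytosolic genes, 6 rose and 2 fell (median 0.024). Prdx2 (0.22), Park7 (0.21), Ccs, the copper chaperone of Sod1 (0.18), and Gsr, glutathione reductase (0.20), were higher. Txn1 and Glrx were the genes that fell, by 0.055 and 0.15 on the log2 scale. Of 9 glutathione synthesis genes, 4 rose and 1 fell. Gclm, the modifier subunit of the rate-limiting ligase, changed by 0.44, Oplah by 0.33 and Chac2 by 0.27. The exception was Slc3a2, a subunit of the cystine transporter, at -0.42. Gclc (0.065, limma adjusted p = 0.111) and Gss (-0.032, limma adjusted p = 0.157) were not called.

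Of 8 secretory pathway and extracellular genes, 2 rose and 5 fell (median -0.13). Gpx8, a peroxidase of the endoplasmic reticulum, was higher at 0.36, while Selenop (-0.17), Selenom (-0.19) and Msrb3 (-0.16) were lower, the direction of Sod3. Of 8 haem and metal handling genes, 6 fell and none rose (median -0.24), among them the metallothioneins Mt2 (-0.78) and Mt1 (-0.48), Hmox1, haem oxygenase 1 (-0.41), and the iron exporter Slc40a1 (-0.41). Of 10 genes for NADPH oxidases and other oxidant sources, 7 fell and 1 rose (median -0.53). Cyba (-0.74), Cybb (-0.74), Ncf4 (-0.60) and Ncf1 (-0.53) encode the phagocyte oxidase, and Xdh, xanthine dehydrogenase, was the exception at 0.19. Nox4, which is not part of the phagocyte oxidase, fell as well (-0.56). The phagocyte oxidase genes are expressed in macrophages, whose markers fell as given above, and the part of those cells was not tested.

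Among 13 regulators, 5 rose and 4 fell (median 0.013). Bach1, a repressor at antioxidant response elements, fell (-0.29), Keap1, which holds the activator Nfe2l2 inactive, rose (0.26), and Nfe2l2 itself fell (-0.16). Esrra, which drives mitochondrial genes with PGC-1 coactivators, rose (0.25), and Txnip, which binds thioredoxin, fell (-0.20).

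**Figure D4:**
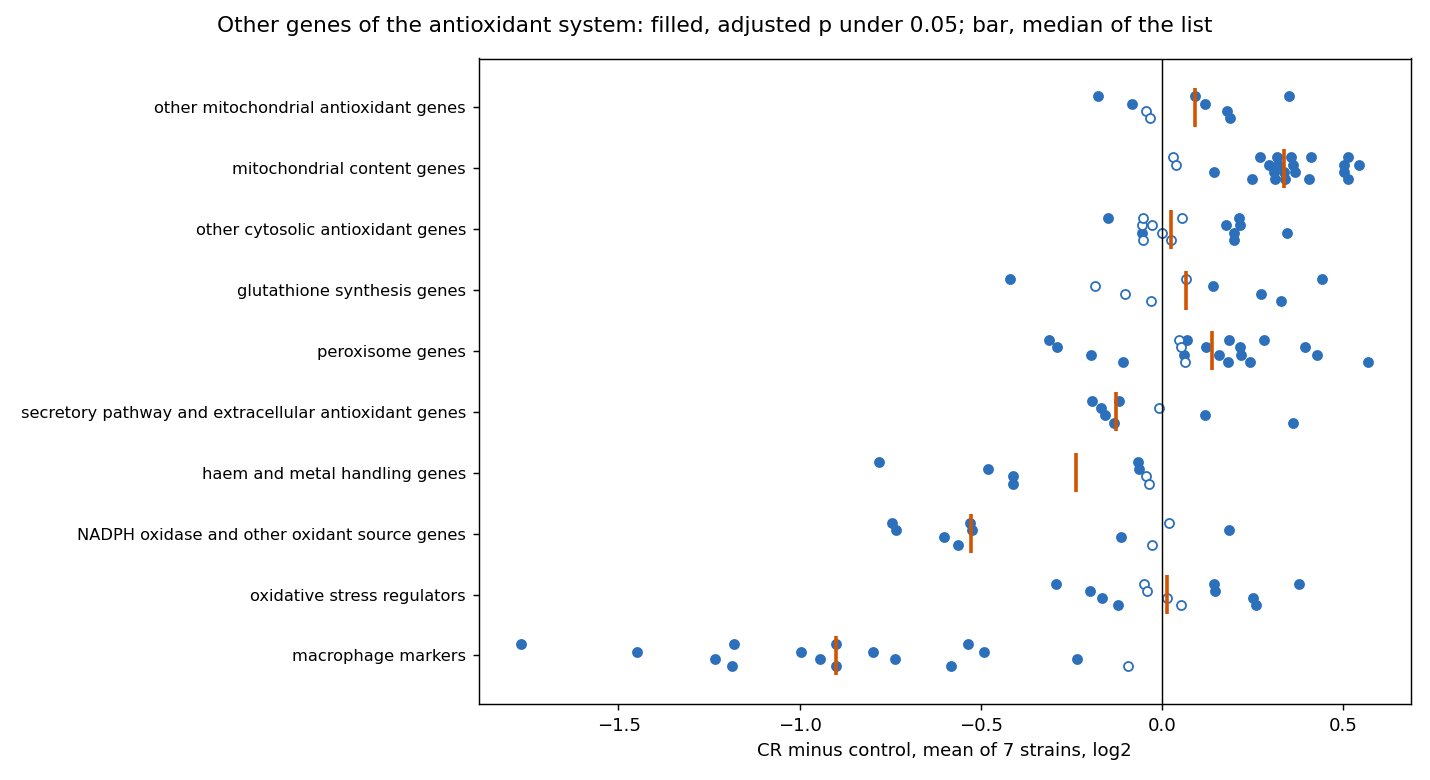
Mean CR change over 7 strains (log2, x axis) of each measured gene in 10 lists (y axis), filled where the limma adjusted p was under 0.05, with an orange bar at the median of each list. Mitochondrial content genes lie to the right of 0 (median 0.34), macrophage markers to the left (median -0.90), and the antioxidant lists spread to both sides.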

How the data were processed

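Total RNA from epididymal WAT of 112 male mice was measured, each on its own Affymetrix Mouse Gene 1.0 ST array. The deposited values were log2 signal that the authors made with the RMA method in Affymetrix Expression Console (version not given in the sources used here), which corrects background, quantile-normalizes arrays and summarizes probes. Array medians lay between 6.72 and 6.86. RMA values have no counting depth, so the number of mice limits the precision.

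Of 35556 probe sets, 21789 carried 1 gene symbol in the platform annotation, and the brightest over all arrays was kept for each of 19938 genes. Groups came from the labels. Differences were tested with limma 3.58.1 (lmFit and eBayes) in R 4.3.3 with Benjamini-Hochberg adjustment over all genes at 0.05. A model of all 14 groups gave the mean CR change over strains, the F-test of strain by diet, the contrast of BALB/cJ with the 6 other strains and the control order. Each strain was also fitted alone, with its 16 mice. The planned mitochondrial group of 4 was reduced to 3 because no probe set carried Prdx5 alone. An array stood apart when its epididymis marker mean was over 3 robust SDs, or a principal component over 4, from the median array. The fits were tested on simulated data.

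Named genes were the members, up to 4 genes of each pathway list and 3 of each cell type list by smallest p, single exceptions in direction, and the 3 genes most correlated with each member. Nnt, Txn1, Glrx, Gclc, Gss, Nox4, Nfe2l2, Tomm20 and Ndufs1 fall outside this rule and were picked with their values already known. So were Srxn1, Acaa1b, Hao1, Scp2 and Ech1. The members and lists were chosen with earlier results of these data known. Alternatives covered normalization, probe set choice, dim genes, moderation, array weights, the replicate number as a block, thresholds, single strains, BALB/cJ mice left out in turn and arrays that stood apart. Leaving out the 8 epididymis-rich arrays was added after seeing the data. Promoter windows were read from RefSeq tables (Python 3.11.15), and the figures were drawn with matplotlib 3.10.9.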

Additional observations from a re-analysis of the deposited data

Results flagged for a closer look

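In 126 groups of 8 mice (9 enzymes in 14 groups), 20 held a mouse whose gap to its nearest neighbour exceeded Dixon's limit for 8 values as a share of the range of the group, where chance gives about 1 in 20 groups. Most fell on 3 mice, and the cause was not tested.

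C57BL/6J CR mouse 2 was lowest for 6 enzymes, with gaps of 0.636 of the range for Sod2, 0.653 for Txn2, 0.758 for Gpx1, 0.812 for Gpx4, 0.860 for Cat and 0.766 for Sod3. Its epididymis marker mean was 11.96 against 4.78 to 7.75 in the other mice of its group, and its adipocyte marker mean 11.25 against 12.36 to 12.48. CBA/J CR mouse 5 was lowest for Sod2 (0.750), Txn2 (0.5264), Gpx4 (0.811) and Cat (0.652). Its epididymis marker mean was 11.70 against 5.07 to 7.84, and its adipocyte marker mean 11.84 against 12.29 to 12.39.

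BALB/cJ control mouse 3 was highest for Sod2 (0.534), Prdx3 (0.596) and Txn2 (0.633) and lowest for Gpx1 (0.780) and Cat (0.576), the directions that CR mice of the other strains took. Its mitochondrial content gene mean was 11.16 against 10.44 to 10.67 in the other BALB/cJ control mice. Its epididymis marker mean, 4.96, was within the range of the others.

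The remaining gaps stood alone. In 129S1/SvImJ, control mouse 6 was lowest for Gpx3 (0.570; 11.75 against 12.01 for the next). In C3H/HeJ, CR mouse 4 was highest for Sod3 (0.586), and its macrophage marker mean was 9.60 against 8.27 to 8.96. In CBA/J, control mouse 2 was lowest for Cat (0.694), and its macrophage marker mean was 10.54 against 9.71 to 9.92. DBA/2J CR mouse 3 was lowest for Prdx3 (0.550), and B6C3F1/J CR mouse 8 was highest for Gpx3 (0.527).

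The CR change differed between strains by the limma F-test for Gpx3 (adjusted p = 7.63e-06), Gpx4 (adjusted p = 0.00357), Sod2 (adjusted p = 0.0444) and Txn2 (adjusted p = 0.0477).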

How the results depend on the processing

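Across strains, the 16 alternatives called 5 or 6 enzymes higher and 3 lower. Of the single values, 140 kept direction and call. The other 4 were of Gpx3, which gained a call in 3 and turned to -0.0048 without CBA/J. The difference between compartments ranged from 0.49 to 0.56. The F-test of strain called 4 enzymes, but 2 after median centring, 7 with array weights, 2 without 129S1/SvImJ, 2 without CBA/J and 1 without B6C3F1/J. The BALB/cJ contrast called none, and 1 with array weights. In C57BL/6J 4 enzymes were called, and 0 without the arrays that stood apart, which left 1 CR mouse assumed to vary like the controls. In DBA/2J 2 were called. The count there was 5 at an unadjusted p under 0.01, 5 by the methods' t-test at that threshold and 0 after its Benjamini-Hochberg adjustment, 0 after median centring, 5 with array weights, 0 with the replicate block, 0 without the arrays that stood apart and 1 without those rich in epididymis markers. Leaving out single BALB/cJ mice gave 0 calls throughout (range 0 to 0).

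Values not called that changed sign were, with quantile normalization, Sod1 in BALB/cJ (-0.032), Gpx4 in C57BL/6J (-0.020), Cat in DBA/2J (0.0054) and Gpx3 in DBA/2J (-0.0084). Without the arrays that stood apart, Cat in DBA/2J was 0.043 and Gpx3 in DBA/2J -0.095. Without those rich in epididymis markers, Gpx3 was 0.11 in C57BL/6J and -0.020 in DBA/2J. Causes were not tested.

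With the replicate number as a block, 5 enzymes rose and 3 fell across strains. Same-numbered control and CR mice correlated between -0.36 and 0.55 over 56 pairs (median 0.026, 18 over 0.1). Of 112 mice, 18 correlated best with their own number. The highest pairs included BALB/cJ mice 3 and 4 (0.55 and 0.53) and C3H/HeJ mice 4 and 6 (0.44 and 0.45). Whether same-numbered mice of some strains were handled together cannot be told from these values.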
